A study of Mus musculus with 32 samples.

Results

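Genes that stayed higher after Dnmt1 silencing whatever the cytokine state were examined in bulk RNA-seq of a mouse lung endothelial cell (EC) line. DNMT1 is the maintenance DNA methyltransferase: it copies the methyl marks of CpG sites onto the newly made strand when DNA is replicated, so its loss lets methylation fade as cells divide. Dense methylation of a CpG-rich promoter goes with a silent gene, as at imprinted and germline genes, while CpG-poor promoters are often methylated in cells that do not use the gene. In endothelium, the cytokines TNF and interferon-gamma switch on chemokine, adhesion and antigen presentation genes through NF-kB and interferon signalling.

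The cells were Veravec cells, mouse lung ECs grown as 1 line, treated in 2 rounds of transfection with a control siRNA, the si-control cells, or with Dnmt1-targeting siRNA, the si-dnmt cells. They then received no cytokine, TNFα at 10 ng/mL (TNF), IFNγ at 1000 U/mL (IFN) or both together (TNF + IFN) for 16 h, which gives 8 groups of 4 libraries, 32 in all, described as biological replicates and numbered 1 to 4. Every comparison below is thus within a single cultured line, and the silencing was transient. A gene entered the set when (mean si-dnmt CPM + 0.25) / (mean si-control CPM + 0.25) was at least 2 in each of the 4 states and its si-dnmt mean reached 1 CPM in each, where CPM is the count scaled by the total count of its library. Of 54429 gene symbols, 124 met both limits, 15 were left out by name (symbols that start with Slc, Col, Zfp, Hox, Mmp, Adam, Wnt, Sema, Eph, H2- or Gbp, and 10 single genes such as Casp1, Nox1 and Tnfsf4), and 109 remained. Because the siRNA difference itself chose these genes, their siRNA ratios are a description and carry no test. The responses to cytokine, averaged over both siRNAs, were tested. The choice did not use them, except that the si-dnmt mean had to reach 1 CPM in each state.

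Total counts per library were 17362546 to 33500030 (median 20859668). Dnmt1, the siRNA target, stood at 92.3, 88.2, 158 and 152 CPM in replicates 1 to 4 of si-control and at 10.9, 13.3, 7.03 and 7.12 CPM in those of si-dnmt, and its log2 ratio was −3.64 without cytokine, −3.77 with TNF, −3.83 with IFN and −3.98 with TNF + IFN. The groups did not overlap in any state. The EC markers Cdh5 (VE-cadherin, 2056 ± 613 CPM in si-control against 2273 ± 650.2 CPM after silencing, SD, n = 4) and Pecam1 (1648 ± 368 CPM and 1637 ± 262 CPM) overlapped between siRNAs, and all 17 endothelial marker genes passed the filter on low counts. Replicates 1 and 2 differed from replicates 3 and 4 throughout, so values within these sets are given where they bear on a result. In bulk samples, fewer cells of a type and less RNA per cell cannot be told apart.

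The 109 genes had a median log2 ratio of 1.45 without cytokine, 1.54 with TNF, 1.54 with IFN and 1.46 with TNF + IFN, with the lowest at the limit of 1.00 and the highest at 3.42 (Nefm with IFN). Every si-dnmt library lay above every si-control library for 77, 87, 85 and 92 of the 109 in these states, where the same held for 15.3%, 15.1%, 16.4% and 14.6% of the 15250 genes tested. In all 4 states at once it held for 61 members (56.0%) and for 5.13% of genes tested. The rule fixes this direction, so nothing is read from the excess. All 109 had a ratio above 1 within replicates 1 and 2 and within replicates 3 and 4 in every state, and 56 reached the 2-fold limit in both sets in all 4 states.

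The levels spanned a wide range. The si-dnmt mean without cytokine ran from 1.02 CPM to 3580 CPM. It was at least 10 CPM for 41 members and at least 100 CPM for 9. In si-control, 11 members stayed under 1 CPM in all 4 states and 61 were at 1 CPM or more in all 4, so the set holds both nearly silent genes and genes already read in control ECs. Members just inside the limit were Ddr1, Arhgef37, Cat and Tlr7, with smallest ratios of 2.00 to 2.02. Just outside were P2rx5, Mtf1, Fbn1, Mapkapk3 and Tcp11l1, with smallest ratios of 1.97 to 1.99, so the edge of the set is not a gap in the data.

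**Figure D1:**
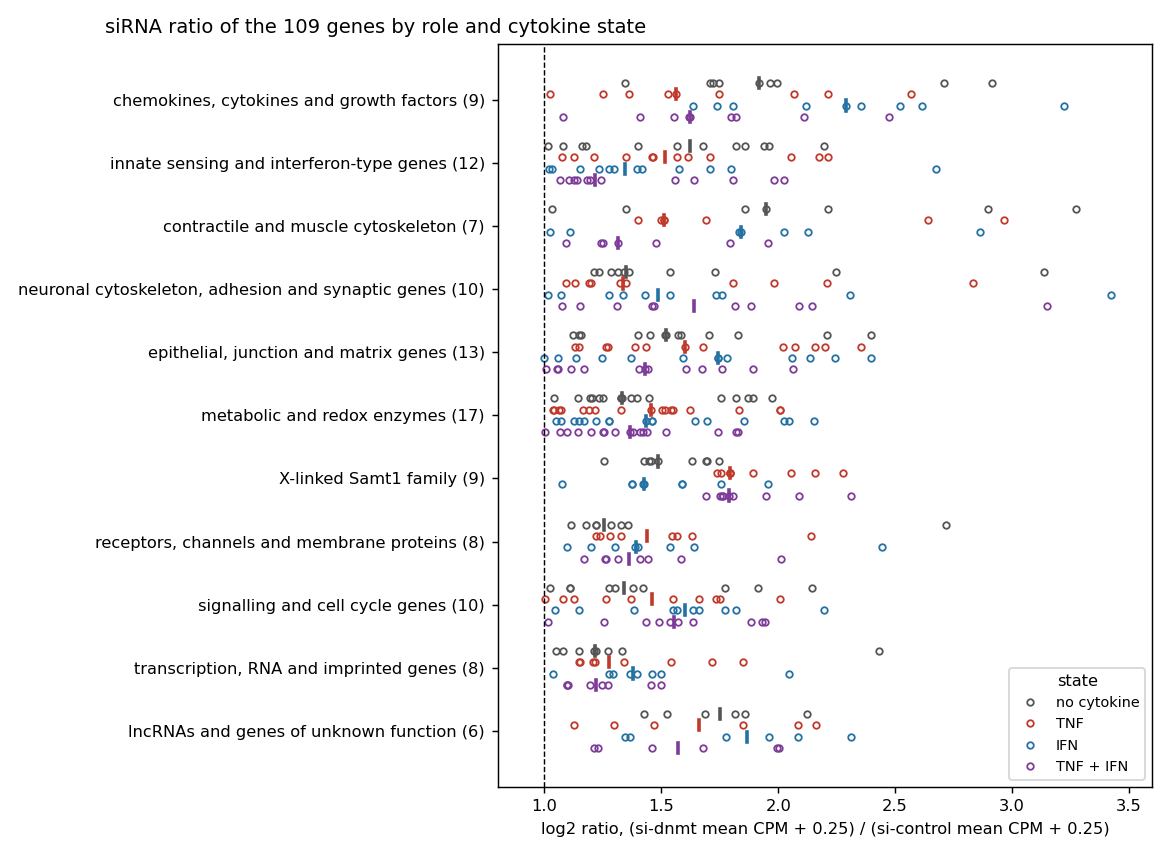
Log2 siRNA ratio (x axis) of each of the 109 genes, grouped by role (rows, number of genes in parentheses) and coloured by cytokine state. Bars are medians and the dashed line is the 2-fold limit of the rule; the medians of the chemokine group lie between 1.56 and 2.29, and every point lies at or right of the limit because the rule required it.

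The 12 genes with the largest smallest-of-4 ratio were Nefm, Afp, Sstr5, Gm28321, Reln, Myl9, Slfn4, Ehhadh, Fam13a, Il1f9, Aldh1a1 and Rassf6. Nefm stood at 0.577, 1.36, 1.22 and 1.20 CPM in replicates 1 to 4 of si-control and at 7.37, 7.71, 18.8 and 12.3 CPM in those of si-dnmt, a gap of 3.14 on the log2 scale for a neurofilament subunit. All 4 si-dnmt libraries lay far above the controls, and replicates 3 and 4 of si-dnmt were the higher ones. Afp stood at 0.0480, 0.210, 0.587 and 0.599 CPM in replicates 1 to 4 of si-control and at 2.39, 2.06, 5.61 and 4.89 CPM in those of si-dnmt. Afp encodes alpha-fetoprotein, a plasma protein of the fetal liver, and its groups did not overlap in any state. Reln stood at 0.528, 0.262, 0.993 and 0.922 CPM in replicates 1 to 4 of si-control and at 2.35, 3.53, 5.58 and 5.15 CPM in those of si-dnmt. Reln encodes reelin, a secreted matrix glycoprotein that guides migrating neurons, and it too did not overlap in any state. Myl9 stood at 0.625, 0.262, 1.40 and 1.57 CPM in replicates 1 to 4 of si-control and at 4.04, 7.80, 18.8 and 15.2 CPM in those of si-dnmt. Myl9 is a regulatory light chain of non-muscle and smooth muscle myosin. Its log2 ratio was 3.27 without cytokine, 2.97 with TNF, 2.86 with IFN and 1.96 with TNF + IFN.

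Sstr5, a somatostatin receptor, and Gm28321, a predicted gene, were close to silent in control ECs. Sstr5 stood at 0, 0.0525, 0.271 and 0.138 CPM in replicates 1 to 4 of si-control and at 1.17, 0.826, 3.09 and 3.52 CPM in those of si-dnmt. With IFN, Sstr5 had 2 counts over the 4 si-control libraries and 121 over the 4 si-dnmt libraries, a CPM ratio of 48.7 with a 95% exact interval of 13.2 to 407. Gm28321 had 5 counts over the 4 si-control libraries and 108 over the 4 si-dnmt libraries, a CPM ratio of 18.8 with a 95% exact interval of 7.79 to 58.9 without cytokine. Grhl2, an epithelial transcription factor, was the other member at 3 counts or fewer in every control library without cytokine, with 2 counts over the 4 si-control libraries and 102 over the 4 si-dnmt libraries, a CPM ratio of 44.3 with a 95% exact interval of 11.9 to 371. These intervals cover counting error only, and the ratios with 0.25 CPM added are smaller (2.44, 2.12 and 2.21 on the log2 scale).

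Among the rest of the 12, Slfn4 (a schlafen family gene of myeloid cells) measured 1.49, 1.73, 0.361 and 1.24 CPM in the si-control libraries and 7.41, 8.40, 4.39 and 5.53 CPM in the si-dnmt libraries. Here replicates 1 and 2 were the higher ones in both arms. Il1f9, an interleukin family cytokine of barrier tissues, measured 0.769, 1.47, 1.81 and 1.94 CPM in the si-control libraries and 4.27, 3.81, 7.77 and 6.59 CPM in the si-dnmt libraries. Aldh1a1, a retinaldehyde dehydrogenase, measured 0.865, 0.577, 3.57 and 3.18 CPM in the si-control libraries and 2.58, 3.90, 15.8 and 12.8 CPM in the si-dnmt libraries, so that replicate 1 of si-dnmt lay under replicates 3 and 4 of si-control. Rassf6, a Ras association domain gene, measured 0.865, 0.945, 3.03 and 3.18 CPM in the si-control libraries and 3.00, 5.74, 13.8 and 10.4 CPM in the si-dnmt libraries, and Fam13a, a gene with a GTPase-activating domain, measured 0.673, 0.210, 2.17 and 1.01 CPM in the si-control libraries and 2.67, 2.43, 8.96 and 7.31 CPM in the si-dnmt libraries. Fam13a did not overlap without cytokine but did in the other 3 states. Within each replicate set, every si-dnmt library of these 3 genes was above every si-control library. The Rassf6 log2 ratio was 2.00 in replicates 1 and 2 and 1.88 in replicates 3 and 4. Ehhadh, a peroxisomal enzyme of fatty acid oxidation, measured 0.144, 0.210, 0.497 and 0.415 CPM in the si-control libraries and 1.92, 1.65, 1.26 and 1.82 CPM in the si-dnmt libraries and did not overlap in any state.

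**Figure D2:**
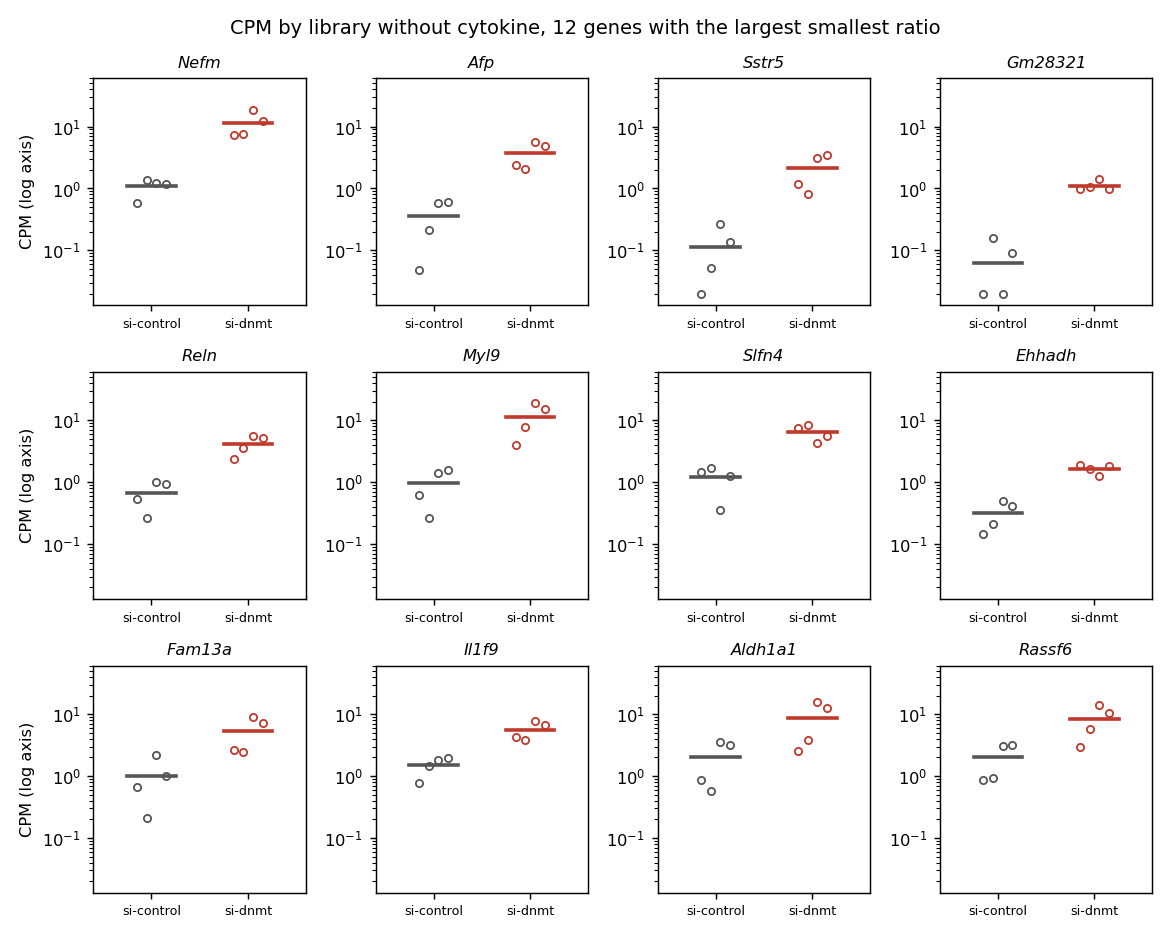
CPM of each library without cytokine (log axis; circles, libraries in replicate order from left to right; bars, group means) for the 12 genes with the largest smallest-of-4 ratio, with libraries at 0 counts drawn at the foot of the axis. Nefm, for example, lay at 0.577 to 1.36 CPM in si-control and 7.37 to 18.8 CPM in si-dnmt.

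Chemokines, cytokines and growth factors made up 9 members: Cxcl1, Cxcl2, Cxcl3, Cxcl5, Csf1, Lif, Il1f9, Nbl1 and Afp, the last of which is a carrier protein. Their median log2 ratios in the 4 states were 1.92, 1.56, 2.29 and 1.62 (no cytokine, TNF, IFN and TNF + IFN, the order used for all groups below), and the arms did not overlap for 8, 8, 9 and 9 of the 9. Cxcl1, Cxcl2, Cxcl3 and Cxcl5 encode chemokines that draw neutrophils through CXCR2, and they lie close together in the genome. Cxcl1 stood at 18.3, 47.4, 6.95 and 8.99 CPM in replicates 1 to 4 of si-control and at 45.6, 51.2, 129 and 85.2 CPM in those of si-dnmt. One control library, replicate 2, reached the range of the si-dnmt libraries. Cxcl2 stood at 1.49, 2.62, 0.316 and 0.0461 CPM in replicates 1 to 4 of si-control and at 2.82, 5.69, 18.7 and 13.1 CPM in those of si-dnmt, and Cxcl2 stood at 24.5, 20.4, 21.6 and 24.3 CPM in replicates 1 to 4 of si-control + TNF and at 40.0, 47.0, 92.3 and 84.3 CPM in those of si-dnmt + TNF. With TNF the control libraries were close together and all lay below the si-dnmt libraries, of which replicates 3 and 4 were the higher. Cxcl3 stood at 2.31, 4.20, 2.26 and 2.40 CPM in replicates 1 to 4 of si-control and at 4.97, 5.92, 10.7 and 8.33 CPM in those of si-dnmt, and with TNF at 34.3, 28.5, 90.9 and 96.7 CPM in the si-control + TNF libraries and 79.0, 86.1, 179 and 166 CPM in the si-dnmt + TNF libraries. Here replicates 1 and 2 of si-dnmt fell under replicates 3 and 4 of si-control, so the arms overlapped with TNF, with a log2 ratio of 1.03. Cxcl5 stood at 19.8, 30.3, 26.1 and 24.8 CPM in replicates 1 to 4 of si-control and at 39.5, 52.5, 177 and 137 CPM in those of si-dnmt, and with IFN at 3.75, 5.49, 10.4 and 10.9 CPM in the si-control + IFN libraries and 19.8, 29.0, 61.3 and 50.1 CPM in the si-dnmt + IFN libraries. Cxcl5 did not overlap in any state.

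Csf1, the macrophage growth factor, carried the most reads of the group. Csf1 stood at 395, 417, 404 and 389 CPM in replicates 1 to 4 of si-control and at 1063, 1203, 1563 and 1413 CPM in those of si-dnmt, and with TNF at 1143, 1169, 1602 and 1664 CPM in the si-control + TNF libraries and 3439.6, 3689, 4600.2 and 4779 CPM in the si-dnmt + TNF libraries. The si-control libraries without cytokine lay within 389 to 417 CPM, and si-dnmt without TNF reached about the level of si-control with TNF. Lif, an interleukin-6 family cytokine, measured 0.673, 0.577, 1.08 and 0.737 CPM in the si-control libraries and 1.5, 2.71, 5.13 and 5.57 CPM in the si-dnmt libraries, and 14.7, 17.6, 19.5 and 17.7 CPM in the si-control + TNF + IFN libraries and 34.9, 33.2, 38.1 and 42.0 CPM in the si-dnmt + TNF + IFN libraries. Its log2 ratio was 1.97 without cytokine, 1.75 with TNF, 1.74 with IFN and 1.08 with TNF + IFN. Nbl1, a secreted BMP antagonist, ran from a log2 ratio of 1.72 without cytokine to 2.52 with IFN. The 3 members whose ratio varied most over the states were Cxcl2 (2.92 without cytokine, 1.53 with TNF, 3.22 with IFN and 1.62 with TNF + IFN), Acta2 (2.90 without cytokine, 2.64 with TNF, 2.02 with IFN and 1.32 with TNF + IFN) and Myl9. The 3 that varied least, as the range of the log2 ratio over states, were Plagl2 (0.13), Ccng1 (0.17) and Tnrc6a (0.20), against a median range of 0.49.

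**Figure D3:**
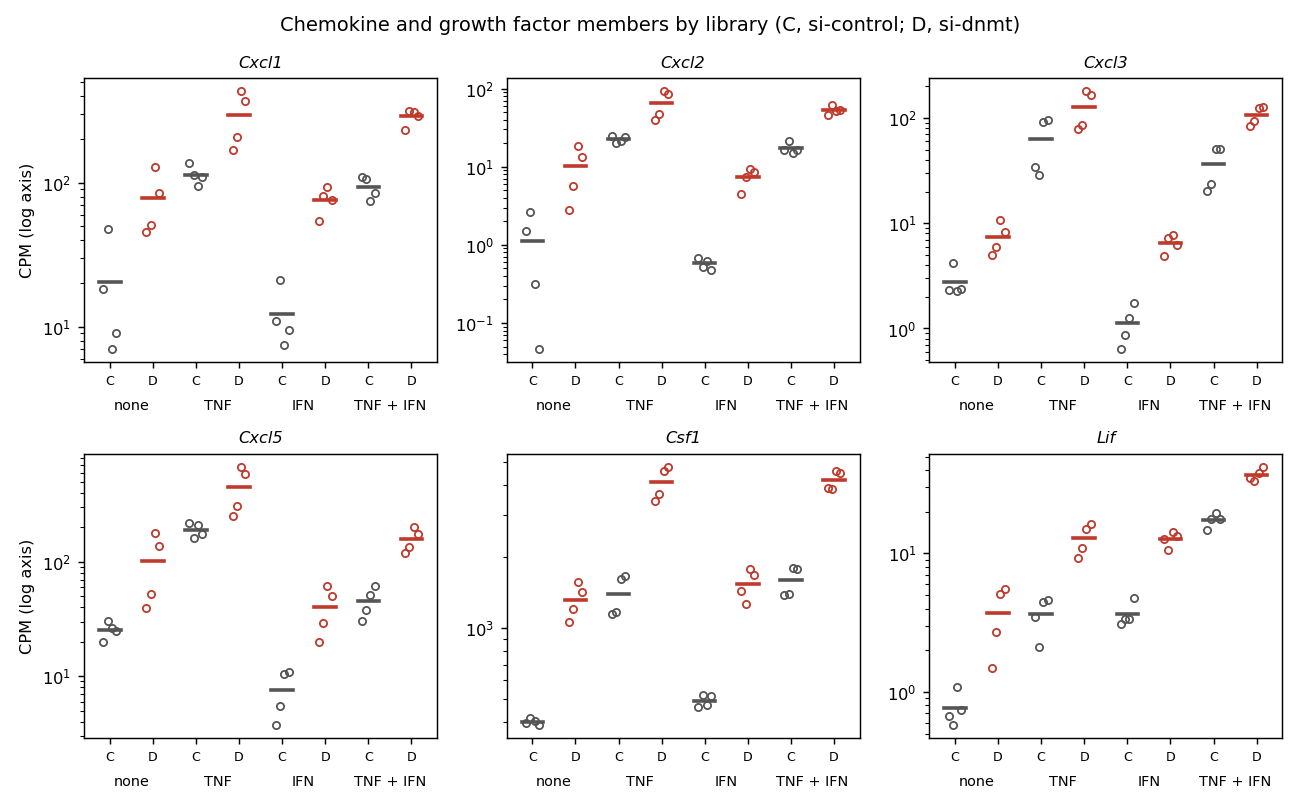
CPM by library (log axes that differ between panels; circles, 4 libraries a group in replicate order; bars, group means) for Cxcl1, Cxcl2, Cxcl3, Cxcl5, Csf1 and Lif in si-control (C) and si-dnmt (D) under each cytokine state. Csf1 in si-dnmt without cytokine (1063 to 1563 CPM) lies near si-control with TNF (1143 to 1664 CPM), while Cxcl5 is lower with IFN than without in both arms.

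The promoters of 4 of these genes are shown because they share an element: in the 250 bases before the start to 50 after it, Cxcl1, Cxcl2, Cxcl3 and Csf1 were the only members searched to hold an NF-kB-type element (GGG, any 2 bases, TTTCC) on either strand (4 of 81 members with a promoter, 4.94%, and 1.76% of the 10700 genes tested with one). No promoter was matched for Cxcl5, so it was not searched. Sequences are RefSeq, build GRCm38.p6, 5′ to 3′, the 250 bases before the start, with the element in capitals.
Cxcl1 (chr5:90890995-90891244, plus strand): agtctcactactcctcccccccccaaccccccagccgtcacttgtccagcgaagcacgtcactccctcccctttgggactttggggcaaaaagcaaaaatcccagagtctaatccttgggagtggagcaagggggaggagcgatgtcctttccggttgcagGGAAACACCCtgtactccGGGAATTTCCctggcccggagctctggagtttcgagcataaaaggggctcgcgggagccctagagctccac
Cxcl2 (chr5:90903649-90903898, plus strand): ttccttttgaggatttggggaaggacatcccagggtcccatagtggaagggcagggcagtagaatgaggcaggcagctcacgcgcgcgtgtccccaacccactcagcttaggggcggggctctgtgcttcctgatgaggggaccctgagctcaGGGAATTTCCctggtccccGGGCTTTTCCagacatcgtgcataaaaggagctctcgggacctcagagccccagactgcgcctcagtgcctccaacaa
Cxcl3 (chr5:90785851-90786100, plus strand): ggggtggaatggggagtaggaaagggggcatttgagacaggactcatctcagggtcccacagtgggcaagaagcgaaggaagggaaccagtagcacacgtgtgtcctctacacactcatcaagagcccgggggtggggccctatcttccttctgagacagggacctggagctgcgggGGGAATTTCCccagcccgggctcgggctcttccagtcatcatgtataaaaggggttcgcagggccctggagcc
Csf1 (chr3:107760470-107760719, minus strand): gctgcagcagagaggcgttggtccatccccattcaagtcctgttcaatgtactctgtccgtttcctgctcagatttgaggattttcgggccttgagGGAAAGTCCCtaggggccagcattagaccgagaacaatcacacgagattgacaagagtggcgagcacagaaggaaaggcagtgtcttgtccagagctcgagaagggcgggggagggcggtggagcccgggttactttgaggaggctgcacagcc
In the 3 chemokine promoters the element lay 71 to 97 bases before the start, and in Csf1 it lay 154 bases before it.

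Innate sensing and interferon-type genes made up 12 members, among them Slfn4, Ifi214, Oas1g, Phf11a, Naip5, Naip6, Tlr7, Ikbke, Lcn2, Gca and Lat2. The median log2 ratios were 1.62, 1.52, 1.35 and 1.22, lowest with TNF + IFN, and the arms did not overlap for 9, 9, 10 and 10 of the 12. Ifi214 is a PYHIN family gene, Oas1g an oligoadenylate synthetase that senses double-stranded RNA, and Phf11a one of the PHD finger genes that interferon raises. Ifi214 stood at 0.769, 0.210, 1.04 and 0.830 CPM in replicates 1 to 4 of si-control and at 4.41, 4.27, 2.23 and 2.84 CPM in those of si-dnmt, and with TNF + IFN at 32.3, 43.1, 9.98 and 11.9 CPM in the si-control + TNF + IFN libraries and 76.1, 79.0, 39.6 and 36.8 CPM in the si-dnmt + TNF + IFN libraries. With TNF + IFN replicates 3 and 4 of si-dnmt reached only the range of replicates 1 and 2 of si-control. Phf11a stood at 0.144, 0, 0.497 and 0.599 CPM in replicates 1 to 4 of si-control and at 0.985, 1.42, 1.49 and 1.74 CPM in those of si-dnmt, and with TNF + IFN at 21.4, 20.5, 10.3 and 9.35 CPM in the si-control + TNF + IFN libraries and 43.9, 38.8, 25.8 and 27.0 CPM in the si-dnmt + TNF + IFN libraries. Oas1g had log2 ratios of 1.96 without cytokine, 1.35 with TNF, 1.23 with IFN and 1.11 with TNF + IFN. Naip5 and Naip6, inflammasome receptors for bacterial flagellin, had log2 ratios of 1.40 and 1.82 without cytokine, and as close paralogs their counts may be shared.

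Tlr7, the endosomal receptor for single-stranded RNA, was the only member on the list of innate sensors, of which 15 of 23 passed the filter on low counts. Tlr7 stood at 0.480, 0.630, 0.903 and 2.21 CPM in replicates 1 to 4 of si-control and at 2.86, 2.94, 1.64 and 2.12 CPM in those of si-dnmt. The arms overlapped in all 4 states, and the log2 ratio of 1.01 without cytokine was near the limit. Ikbke, a kinase upstream of interferon genes, had log2 ratios of 1.16 without cytokine, 1.13 with TNF, 1.39 with IFN and 1.07 with TNF + IFN, with no overlap in any state. Lcn2, the iron-siderophore carrier lipocalin, measured 8.17, 19.2, 0.181 and 0.138 CPM in the si-control libraries and 36.7, 46.1, 13.0 and 7.31 CPM in the si-dnmt libraries, where replicates 1 and 2 exceeded replicates 3 and 4 in both arms, so that replicates 3 and 4 of si-dnmt fell under replicate 2 of si-control. Its log2 ratio was 1.58 in replicates 1 and 2 and 4.67 in replicates 3 and 4. Gca (grancalcin) and Lat2 (an adaptor of immune receptors) had log2 ratios between 1.08 and 1.81. The 26 leukocyte markers summed to 292 to 329 CPM in si-control and 339 to 382 CPM in si-dnmt without cytokine, so that the sum moved with the siRNA. Nearly all of it came from Lcp1 (mean of 90.2 and 180.1 CPM), Cd68 (127 and 128) and Lyz2 (83.9 and 39.8). The pan-leukocyte marker Ptprc averaged 0.0362 and 0.0352 CPM, 19 of the 26 stayed under 1 CPM in every group, and the T and NK cell markers Cd3d, Cd3e and Nkg7 were at 0 in all 32 libraries. The part of leukocyte RNA in the innate genes was not tested.

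None of the 52 genes of the interferon response list was a member, although all 52 passed the filter and 36 of them had a ratio above 1 in every state. The list's median log2 ratio was 1.02 without cytokine, 0.33 with TNF, 0.28 with IFN and 0.18 with TNF + IFN. Of the 38 TNF and NF-kB response genes, 6 were members (Cxcl1, Cxcl2, Cxcl5, Lif, Csf1 and Lcn2), and the list's median log2 ratio was 0.52, 0.49, 0.61 and 0.55 in the 4 states. In the cytokine contrasts averaged over both siRNAs and tested by edgeR as described further on, 50 of the 52 interferon response genes rose with TNF, 49 with IFN and 52 with TNF + IFN, and none fell. Of the 36 tested genes of the TNF and NF-kB list, 30 rose and 1 fell with TNF, 11 and 2 with IFN, and 32 and 1 with TNF + IFN. An interferon-type element (GAAA, any 2 bases, GAAA) was held by 3 innate and interferon-type members, Ifi214, Oas1g and Phf11a, whose promoters are shown for that reason with the element in capitals (GRCm38.p6, the 250 bases before the start). Over all roles it was held by 5 of 81 members (6.17%) and 3.23% of genes tested, and the other two were Crybg1 and Rab19.
Ifi214 (chr1:173535958-173536207, minus strand): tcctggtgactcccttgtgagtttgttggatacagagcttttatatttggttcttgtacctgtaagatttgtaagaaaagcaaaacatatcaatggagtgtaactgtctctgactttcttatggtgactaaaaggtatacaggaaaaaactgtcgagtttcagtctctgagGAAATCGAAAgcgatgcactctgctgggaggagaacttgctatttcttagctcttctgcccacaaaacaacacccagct
Oas1g (chr5:120887614-120887863, minus strand): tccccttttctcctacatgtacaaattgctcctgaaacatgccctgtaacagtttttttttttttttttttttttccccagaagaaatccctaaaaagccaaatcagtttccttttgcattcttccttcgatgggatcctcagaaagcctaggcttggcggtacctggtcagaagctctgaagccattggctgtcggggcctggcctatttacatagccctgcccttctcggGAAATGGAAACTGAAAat
Phf11a (chr14:59297523-59297772, minus strand): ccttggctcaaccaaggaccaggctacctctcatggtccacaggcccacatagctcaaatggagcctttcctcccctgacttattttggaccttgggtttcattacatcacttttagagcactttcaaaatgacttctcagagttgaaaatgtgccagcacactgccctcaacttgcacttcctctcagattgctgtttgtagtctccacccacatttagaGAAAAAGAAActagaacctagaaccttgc
The Oas1g promoter held 2 overlapping matches, 12 and 18 bases before the start, and Phf11a held its match 29 bases before it. The printed Phf11a stretch held no CpG site.

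Contractile and muscle cytoskeleton genes made up 7 members: Acta2, Myl9, Tpm2, Synpo2, Ttn, Lims2 and Rapsn. Their median log2 ratios were 1.95, 1.51, 1.84 and 1.32, and the arms did not overlap for 4, 5, 4 and 3 of the 7. Acta2 stood at 9.75, 6.88, 24.6 and 20.2 CPM in replicates 1 to 4 of si-control and at 40.7, 80.8, 196 and 146 CPM in those of si-dnmt. Acta2 encodes smooth muscle actin and was the member on the pericyte and smooth muscle list. Without cytokine all si-dnmt libraries lay above all si-control libraries, with TNF + IFN the arms overlapped, and replicates 3 and 4 were higher than 1 and 2 in all 8 groups. Of the other defining markers of smooth muscle and pericytes, Tagln averaged 0.383 CPM in si-control against 0.232 CPM in si-dnmt, Rgs5 0.0131 and 0 CPM, and Pdgfrb 1.47 and 1.47 CPM. Myh11 averaged 0.106 and 1.04 CPM and Notch3 0.794 and 1.72 CPM. The list summed to 129 to 188 CPM in the controls and 303 to 378 CPM in si-dnmt without cytokine, and 7 of its 12 genes stayed under 1 CPM in every group. Most of the rest of the sum was Mcam, also an EC gene, at 139.9 and 220.4 CPM. The part of such cells in the Acta2 and Myl9 values was not tested. The log2 ratios of Tpm2 (beta-tropomyosin), Ttn (titin), Synpo2 (an actin-bundling Z-disc protein), Lims2 (a focal adhesion adaptor) and Rapsn (which clusters acetylcholine receptors) ran from 1.02 to 2.21.

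Neuronal cytoskeleton, adhesion and synaptic genes made up 10 members: Nefm, Nefl, Kif5c, Tuba4a, Reln, Amigo1, Arc, Akap5, Anks1b and Nyx. Their median log2 ratios were 1.35, 1.34, 1.49 and 1.64, and the arms did not overlap for 9, 7, 7 and 8 of the 10. Nefl, the light neurofilament subunit, measured 2.11, 2.15, 7.18 and 6.08 CPM in the si-control libraries and 5.44, 3.90, 15.9 and 16.7 CPM in the si-dnmt libraries, where replicates 3 and 4 of si-control exceeded replicates 1 and 2 of si-dnmt. Its log2 ratio within the sets was 1.05 in replicates 1 and 2 and 1.27 in replicates 3 and 4. Nefm and Nefl were the 2 members among 19 neuronal markers. The list as a whole summed to 102 to 205 CPM in si-control and 72.4 to 143 CPM in si-dnmt, 13 of the 19 stayed under 1 CPM in every group, Chga was at 0 in all libraries, and Gap43, its most read gene, went from a mean of 108 to 49.5 CPM. The part of neuronal RNA in the 10 genes was not tested. Arc (a synaptic immediate early gene), Kif5c (a kinesin heavy chain), Tuba4a (an alpha-tubulin), Akap5 (a kinase anchor) and Amigo1 (a neuronal adhesion protein) had log2 ratios of 1.36, 1.28, 1.23, 1.73 and 1.34 without cytokine. Kif5c reached 1.88 with TNF + IFN. Nyx, a proteoglycan of retinal synapses, ran from 1.54 to 2.21, and Anks1b, a postsynaptic scaffold, from 1.07 to 1.33.

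Epithelial, junction and matrix genes made up 13 members, among them Grhl2, Eppk1, Fat2, Cobl, Shroom3, Fam83h, Ddr1, Crybg1, Vwa1, Thbs1, Gpc1 and Cercam. Their median log2 ratios were 1.52, 1.60, 1.74 and 1.43, and the arms did not overlap for 8, 10, 11 and 12 of the 13. Thbs1, the antiangiogenic matrix protein thrombospondin-1, was the most read member without cytokine, while with TNF Csf1 was higher in both arms. Thbs1 stood at 1338, 1169, 1229 and 1261 CPM in replicates 1 to 4 of si-control and at 2675, 3038, 4778 and 3828 CPM in those of si-dnmt. The control libraries differed little and every si-dnmt library was above them in each state. Fat2, an atypical cadherin of skin, had log2 ratios of 2.40 without cytokine, 2.36 with TNF, 1.74 with IFN and 1.43 with TNF + IFN. Vwa1 (a matrix protein), Eppk1 (epiplakin), Crybg1 (an actin-binding crystallin domain protein) and Shroom3 (an apical constriction protein) averaged 1.73, 1.80, 1.99 and 1.64 over the states. Cobl (an actin nucleator), Ddr1 (a collagen receptor kinase), Gpc1 (glypican), Cercam and Fam83h (a keratin organiser) averaged 1.14 to 1.70. No member was on the list of 17 epithelial markers, whose summed CPM without cytokine was 32.1 to 46.9 in si-control and 30.2 to 36.9 in si-dnmt, nor on the fibroblast list (203 to 210.3 and 141 to 178 CPM). The fibroblast list holds collagen genes, which the rule left out by name, so these could not be members. Of its 12 genes, 1 had a ratio of at least 2 in every state.

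Metabolic and redox enzymes were the largest group, 17 members, among them Aldh1a1, Ehhadh, Adh7, Cat, Akr1c13, Osgin1, Bdh1, Pdk4, Mttp, Gldc, Glyat, Ak1, Bscl2, Entpd6, Lipm and Gk5. Their median log2 ratios were 1.33, 1.46, 1.43 and 1.37, and the arms did not overlap for 11, 13, 14 and 13 of the 17. Cat, the peroxide-removing enzyme catalase, measured 104, 124, 176 and 169 CPM in the si-control libraries and 219, 239.6, 485 and 421 CPM in the si-dnmt libraries. Replicates 3 and 4 were again higher in both arms, and its smallest log2 ratio, with TNF + IFN, was at the limit (1.00). Among the highest log2 ratios averaged over the 4 states were those of Ehhadh (1.91), Aldh1a1 (1.89), Lipm, a lipase of skin (1.75), and Osgin1, an oxidative stress response gene (1.60). Lipm with IFN had 5 counts over the 4 si-control libraries and 115 over the 4 si-dnmt libraries, a CPM ratio of 18.5 with a 95% exact interval of 7.71 to 58.1. Adh7, an alcohol and retinol dehydrogenase, overlapped in all 4 states with log2 ratios of 1.19 without cytokine, 1.04 with TNF, 1.28 with IFN and 1.30 with TNF + IFN. Akr1c13 has close paralogs with which its reads may be shared.

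Receptors, channels and membrane proteins numbered 8 (Sstr5, Trpv2, Ano3, Tmem229b, Cldnd1, Lmbr1l, Tmem8 and Casc4), with median log2 ratios of 1.25, 1.44, 1.39 and 1.36 and no overlap for 7, 8, 8 and 8 of the 8. Apart from Sstr5, Tmem229b averaged 1.48, Lmbr1l 1.38, Casc4 1.37 and Trpv2, a cation channel, 1.36 over the states. Signalling and cell cycle genes numbered 10 (Fam13a, Rassf6, Pik3cd, Arhgef37, Rab19, Ddit4l, Fam102a, Ccng1, Irs2 and Prkar1b), with medians of 1.34, 1.46, 1.60 and 1.55 and no overlap for 5, 6, 6 and 7 of the 10. Ccng1, cyclin G1, a target of p53, measured 244, 231, 274 and 288 CPM in the si-control libraries and 549, 606, 846 and 777 CPM in the si-dnmt libraries, and its ratio was among the steadiest. It was the only member among 28 p53 targets, of which 27 passed the filter and 18 had a ratio above 1 in every state. The list's median log2 ratio was 0.63, 0.61, 0.47 and 0.49. Rab19, a small GTPase, averaged 1.79, Prkar1b, a kinase A regulatory subunit, 1.49 and Ddit4l, an mTOR inhibitor, 1.44.

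Transcription, RNA and imprinted genes numbered 8 (Peg10, Plagl2, Lcor, Nacc2, Stox2, Meis3, Tnrc6a and Zcchc3), with medians of 1.22, 1.28, 1.38 and 1.22 and no overlap for 7, 8, 8 and 7 of the 8. Peg10, a retrotransposon-derived imprinted gene expressed from the paternal allele, measured 2.31, 2.26, 5.37 and 3.04 CPM in the si-control libraries and 12.2, 13.7, 28.1 and 20.5 CPM in the si-dnmt libraries, and without cytokine all si-dnmt libraries lay above all controls. It was the only member of 38 imprinted genes. Its neighbour in the same imprinted domain, Sgce, had log2 ratios of −0.15, −0.013, −0.22 and −0.11, a value looked up after the data were seen. Of the imprinted genes, 17 of 38 were under 1 CPM in every group and Igf2, Dlk1, Meg3, Snurf, Mirg and Rtl1 were at 0 throughout. Tnrc6a, a GW-repeat protein of miRNA silencing, measured 96.5, 103, 98.9 and 102 CPM in the si-control libraries and 212, 217, 270.0 and 237 CPM in the si-dnmt libraries, with narrow groups that did not overlap. Plagl2 and Nacc2 averaged log2 ratios of 1.21 and 1.45, and Lcor, Stox2, Meis3 and Zcchc3 1.20 to 1.34. No member was on the germline list, of which only 6 of 38 genes passed the filter, 33 stayed under 1 CPM in every group and 7 were at 0 in all libraries.

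The last 6 members were lncRNAs or genes of unknown function: Gm28321, Gm20658, Gm38357, A530046M15Rik, 1110002E22Rik and AC133498.1, with median log2 ratios of 1.75, 1.66, 1.87 and 1.57 and no overlap for 5, 5, 6 and 6 of the 6. 1110002E22Rik measured 0.288, 0.577, 0.135 and 0.230 CPM in the si-control libraries and 1.03, 1.74, 2.34 and 1.74 CPM in the si-dnmt libraries, and 9.72, 7.31, 9.02 and 12.1 CPM in the si-control + TNF + IFN libraries and 28.9, 32.8, 23.5 and 21.7 CPM in the si-dnmt + TNF + IFN libraries. The arms were apart in every state, and the cytokine step was larger than the siRNA step.

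A group of 9 members formed 1 cluster on the X chromosome: Samt1, 4921511M17Rik (Samt1b in RefSeq), Gm10057 (Samt1c), Gm15140 (Samt1d), Gm15143, Gm5947, Gm5645, Gm16445 and Gm5646. Samt1 is a member of a family known from testis and spermatids. In the GENCODE M21 transcripts, 100% of the 31-base stretches of the 4921511M17Rik transcript and 96.8% of those of Gm10057 also occurred in Samt1, and 62.6% to 98% of those of the 5 shorter members in another member, so reads cannot be assigned to 1 copy with certainty and the 9 are not 9 independent genes. The RefSeq promoters of Samt1 and 4921511M17Rik were the same at 299 of 300 bases. The Samt1 promoter (GRCm38.p6, the 250 bases before the start, 5′ to 3′) is shown because it held no CpG site, with the AP-1-type element TGANTCA in capitals.
Samt1 (chrX:154012641-154012890, minus strand): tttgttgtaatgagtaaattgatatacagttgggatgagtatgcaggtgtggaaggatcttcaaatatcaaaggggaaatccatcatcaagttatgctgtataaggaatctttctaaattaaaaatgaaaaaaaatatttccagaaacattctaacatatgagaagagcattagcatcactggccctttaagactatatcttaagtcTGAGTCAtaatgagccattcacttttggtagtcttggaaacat
Samt1 stood at 1.73, 2.20, 10.4 and 8.07 CPM in replicates 1 to 4 of si-control and at 10.9, 11.6, 26.7 and 25.4 CPM in those of si-dnmt, and with TNF at 4.03, 1.63, 12.1 and 12.8 CPM in the si-control + TNF libraries and 13.1, 15.2, 45.1 and 35.2 CPM in the si-dnmt + TNF libraries. Within each replicate set every si-dnmt library was above every si-control library, while between sets replicates 3 and 4 were higher than 1 and 2 in all 8 groups. Across sets the arms overlapped in at least 1 state for each of the 9, for Samt1 with IFN. The median log2 ratios of the family were 1.49, 1.80, 1.42 and 1.79.

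Replicates 3 and 4 were both above replicates 1 and 2 in every one of the 8 groups for 36 of the 109 members (33.0%), against 7.57% of the 15250 genes tested. The opposite, both below in every group, held for 2 members, Lcn2 and Naip5 (1.83%), against 4.9%. The rule used group means over all 4 replicates and not this split. The 36 held all 9 Samt1 family genes, whose reads may be shared, so they do not count as 9 independent genes in this share. The 36 also held Acta2, Myl9, Tpm2 and Synpo2 of the contractile group, Nefl, Reln and Akap5, and the enzymes Adh7, Ak1, Cat, Gldc and Glyat. Without cytokine, Dnmt1 itself was higher in replicates 3 and 4 of si-control than in 1 and 2. In si-dnmt it was lower in replicates 3 and 4 than in 1 and 2, so the depth of silencing also differed between the sets. The sources used here do not say what separates the sets, and the part of the split in any single gene was not tested.

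The cytokine contrasts averaged over both siRNAs asked how the same genes respond to inflammatory signals, by edgeR's quasi-likelihood test over all 15250 genes with Benjamini-Hochberg adjustment, calling an adjusted p under 0.05. With TNF, 29 of the 109 were higher and 11 lower, against 21.3% and 19.4% of all genes tested. With IFN, 20 were higher and 11 lower (12.8% and 10.2% of all genes). With TNF + IFN, 37 were higher and 27 lower (28.5% and 27.3%). The shares of members, 26.6% and 10.1%, 18.3% and 10.1%, and 33.9% and 24.8%, were above the background for rises with each cytokine and below or near it for falls. The rule asks for a si-dnmt mean of 1 CPM in each state and the background does not. The shares of rises and of falls are thus not free of the choice, and how far was not tested. The median log2 fold changes of the members were 0.24, −0.15 and 0.07, beside medians within 0.01 of 0 over all genes. With the replicate number as a term in the model, 43 rose and 20 fell with TNF (26.6% and 25.5% of all genes), and 26 rose and 32 fell with IFN (17.4% and 17.7%), so that with IFN the balance of directions depends on the model. All calls of the unblocked model were kept with the block.

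Chemokine genes and a gene of unknown function led the rise with TNF. Cxcl3 rose by 4.29 ± 0.29 (SE, edgeR adjusted p = 2.73e-12) on the log2 scale, 1110002E22Rik by 3.84 ± 0.20 (SE, edgeR adjusted p = 7.06e-15) and Cxcl2 by 3.54 ± 0.35 (SE, edgeR adjusted p = 4.17e-09). For Cxcl2 the log2 fold change was 4.34 in the si-control libraries alone and 2.72 in the si-dnmt libraries alone, and for 1110002E22Rik 4.48 in the si-control libraries alone and 3.19 in the si-dnmt libraries alone. Cxcl5 rose by 2.54 ± 0.29 (SE, edgeR adjusted p = 4.51e-08), Cxcl1 by 2.19 ± 0.31 (SE, edgeR adjusted p = 1.58e-06), Lif by 2.01 ± 0.20 (SE, edgeR adjusted p = 6.43e-09) and Csf1 by 1.73 ± 0.097 (SE, edgeR adjusted p = 5.10e-14). In the chemokine, cytokine and growth factor group 7 of 9 rose and none fell, against 21.3% and 19.4% of all genes tested. This group was put together after the members were known, so its count is a description. The largest falls with TNF were those of Aldh1a1 (−1.63 ± 0.42, SE, edgeR adjusted p = 0.0027), Arhgef37, a guanine nucleotide exchange factor (−1.40 ± 0.19, SE, edgeR adjusted p = 8.32e-07), and Lims2 (−1.33 ± 0.44, SE, edgeR adjusted p = 0.015). Nefm rose by 0.98 ± 0.29 (SE, edgeR adjusted p = 0.008), while Nefl (0.19 ± 0.52, SE, edgeR adjusted p = 0.81), Acta2 (0.09 ± 0.36, SE, edgeR adjusted p = 0.87), Ccng1 (0.048 ± 0.095, SE, edgeR adjusted p = 0.73) and Tlr7 (0.42 ± 0.34, SE, edgeR adjusted p = 0.35) did not pass the test. Peg10 was at 0.48 ± 0.30 (SE, edgeR adjusted p = 0.21) without the replicate number as a term and rose with it (0.53 ± 0.14, SE, edgeR adjusted p = 0.002).

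With IFN the interferon-type members led. Phf11a rose by 2.60 ± 0.31 (SE, edgeR adjusted p = 1.41e-07), Ifi214 by 2.44 ± 0.39 (SE, edgeR adjusted p = 2.18e-05) and Lif by 2.09 ± 0.20 (SE, edgeR adjusted p = 3.16e-09). Of the 12 innate sensing and interferon-type genes, 7 rose and none fell with IFN, and 10 rose and 1 fell with TNF + IFN. Over all genes tested, 12.8% rose and 10.2% fell with IFN, and 28.5% and 27.3% with TNF + IFN. Roles were assigned after the members were known, and this group was named for interferon-type genes. Its rise with IFN is thus a description and not an independent result. Cxcl5 fell (−1.45 ± 0.28, SE, edgeR adjusted p = 2.91e-04), in the opposite direction to its response to TNF, and Nyx (−1.28 ± 0.37, SE, edgeR adjusted p = 0.013) and Glyat, a glycine acyltransferase (−1.15 ± 0.30, SE, edgeR adjusted p = 0.0055), also fell. Cxcl5 with IFN gave −1.65 in the si-control libraries alone and −1.25 in the si-dnmt libraries alone. Acta2 rose by 1.03 ± 0.36 (SE, edgeR adjusted p = 0.038) and Nefm fell (−1.03 ± 0.34, SE, edgeR adjusted p = 0.025), but the Acta2 call was lost on leaving out any 1 of 8 libraries (replicates 1 and 2 of both groups without cytokine, replicates 3 and 4 of both groups with IFN; adjusted p up to 0.096) and the Nefm call on leaving out any 1 of 5 (si-control replicate 2, si-control + IFN replicates 1 and 4, si-dnmt replicate 3 and si-dnmt + IFN replicate 2; up to 0.064). Of the 18 members called with both single cytokines, 13 rose with both, 1 (Casc4) fell with both and 4 (Cxcl5, Nefm, Arhgef37 and Thbs1) went opposite ways. With the replicate number as a term 37 were called with both, of which 17 rose with both, 7 fell with both and 13 went opposite ways.

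**Figure D4:**
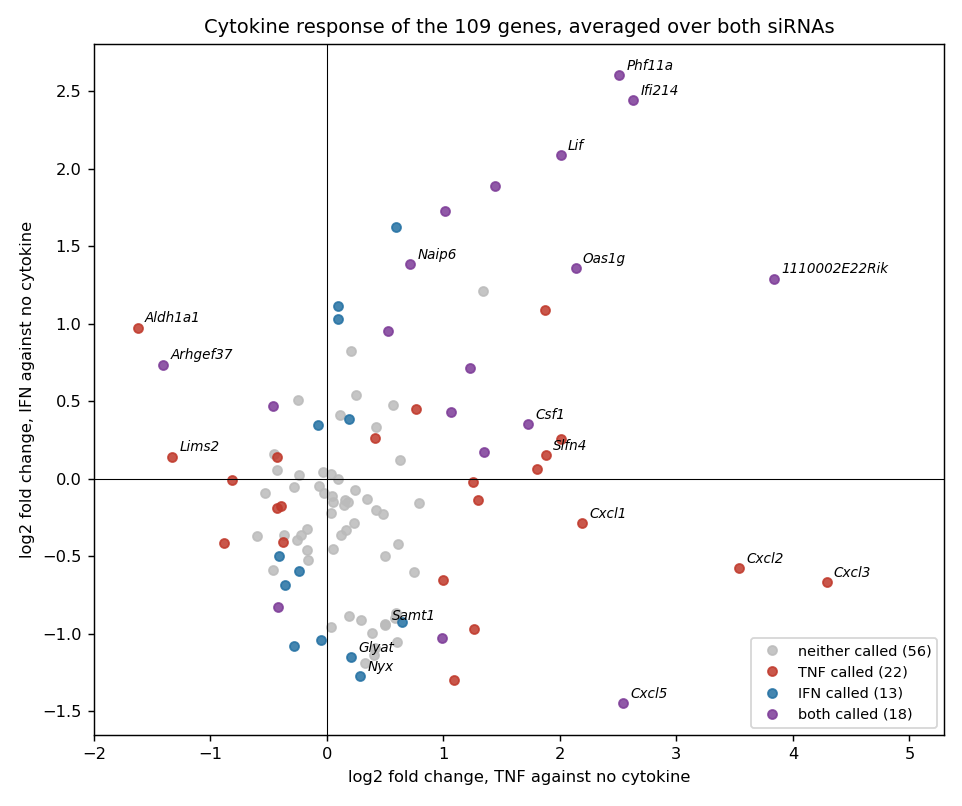
Log2 fold change with TNF (x axis) against that with IFN (y axis), each against no cytokine and averaged over both siRNAs, for the 109 genes (points), coloured by which contrast was called at an adjusted p under 0.05. The Cxcl genes lie to the right at or below 0 for IFN, while Phf11a, Ifi214 and Lif lie at the upper right and rose with both.

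With TNF + IFN the largest rises were those of Phf11a (5.26 ± 0.31, SE, edgeR adjusted p = 1.69e-14), Ifi214 (4.76 ± 0.40, SE, edgeR adjusted p = 4.65e-11) and 1110002E22Rik (4.63 ± 0.20, SE, edgeR adjusted p = 1.31e-17), and Lif rose by 4.07 ± 0.21 (SE, edgeR adjusted p = 7.33e-16). Lcn2 rose by 1.87 ± 0.66 (SE, edgeR adjusted p = 0.017). The largest falls were those of Nyx (−1.99 ± 0.41, SE, edgeR adjusted p = 1.55e-04), Aldh1a1 (−1.91 ± 0.44, SE, edgeR adjusted p = 4.81e-04) and Glyat (−1.77 ± 0.32, SE, edgeR adjusted p = 2.27e-05). Ccng1 fell (−0.40 ± 0.095, SE, edgeR adjusted p = 6.89e-04), as did Cat (−0.79 ± 0.23, SE, edgeR adjusted p = 0.0041). Tlr7 rose by 0.84 ± 0.34 (SE, edgeR adjusted p = 0.036), a call lost on leaving out any 1 of 8 libraries (si-control replicates 1 to 3, si-control + TNF + IFN replicate 2, si-dnmt replicates 3 and 4, and si-dnmt + TNF + IFN replicates 1 and 2; adjusted p up to 0.11). In replicates 3 and 4 alone the Tlr7 value was −0.027 (edgeR adjusted p = 0.94). In the Samt1 family 5 of 9 fell, among them Samt1 (−1.17 ± 0.47, SE, edgeR adjusted p = 0.035), 4921511M17Rik and Gm10057. The calls of these 3 were lost on leaving out any 1 of 8 libraries (replicates 3 and 4 of both groups without cytokine, replicates 1 and 2 of both groups with TNF + IFN; adjusted p up to 0.11), which left Gm5645 and Gm16445, 2 of 9. The Gm10057 call was also lost on leaving out any 1 of 7 more (si-control + IFN replicate 4, si-dnmt + IFN replicates 1 to 4, si-dnmt + TNF replicate 4 and si-dnmt + TNF + IFN replicate 3). With the replicate number as a term 9 of the 9 fell with TNF + IFN, 8 fell with IFN and 5 rose with TNF, where none was called with either single cytokine without it. Over all 15250 genes, 4985 rose and 4858 fell with TNF + IFN in that model. Reads of the 9 may be shared, so these are not 9 independent calls. By role, the counts of calls are small and nothing is read from them. Over all genes tested, 21.3% were higher and 19.4% lower with TNF, 12.8% and 10.2% with IFN, and 28.5% and 27.3% with TNF + IFN. The calls for metabolic and redox enzymes were 3 higher and 2 lower with TNF, 0 and 1 with IFN, and 2 and 5 with TNF + IFN. For epithelial, junction and matrix genes they were 2 higher and 1 lower with TNF, 2 and 1 with IFN, and 6 and 1 with TNF + IFN. For contractile genes they were 1 higher and 1 lower with TNF, 1 and 0 with IFN, and 0 and 2 with TNF + IFN, and for neuronal genes 1 higher and 1 lower with TNF, 0 and 3 with IFN, and 1 and 4 with TNF + IFN. With the replicate number as a term metabolic and redox enzymes had 4 higher and 6 lower with TNF, 2 and 6 with IFN, and 2 and 7 with TNF + IFN. Under it contractile genes had 1 higher and 3 lower with TNF, 2 and 0 with IFN, and 1 and 3 with TNF + IFN. Epithelial, junction and matrix genes had 4 higher and 1 lower with IFN, and neuronal genes 0 and 6. Over all genes that model called 26.6% higher and 25.5% lower with TNF, and 17.4% and 17.7% with IFN. Some calls of the model without the term were lost on leaving out single libraries. Among them were Gk5 with TNF (any 1 of 13), Lipm with TNF (any 1 of 8) and Thbs1 with TNF + IFN (any 1 of 24).

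The TNF-by-IFN interaction asks whether the response to both cytokines differs from the sum of the single responses on the log2 scale. It was called for 3 members, all positive, and for no member in the negative direction, where 1.29% and 1.58% of all genes were called. An unadjusted edgeR p under 0.05 was found for 19 of the 109 members and for 2094 of the 15250 genes tested. DESeq2 called 4 members, and over all genes 296 positive and 345 negative interactions. Among the 3 members called by edgeR were Gk5, a glycerol kinase family gene (0.88 ± 0.21, SE, edgeR adjusted p = 0.019), and Ikbke (0.29 ± 0.076, SE, edgeR adjusted p = 0.03). The Ikbke call was lost on leaving out any 1 of 9 libraries (si-control replicate 3, si-control + IFN replicate 3, si-control + TNF replicate 1, si-dnmt replicate 4, si-dnmt + TNF replicate 1, and replicates 1 and 2 of si-dnmt + IFN and of si-dnmt + TNF + IFN), with an adjusted p of up to 0.058. With the replicate number as a term, 7 positive and 9 negative interactions were called (4.31% and 4.71% of all genes). Cxcl2 (0.40 ± 0.50, SE, edgeR adjusted p = 0.83), Cxcl5 (−0.18 ± 0.39, SE, edgeR adjusted p = 0.92) and Lif (−0.028 ± 0.24, SE, edgeR adjusted p = 0.99) did not pass.

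Some members were neighbours. By RefSeq gene order (GRCm38.p6, names only), 107 of the 109 had an entry, and 32 of them fell into 9 runs in which at most 5 protein-coding genes stood between consecutive members. The same count was not made over all genes tested, so nothing is read from its size. Some runs are families of similar genes, such as Samt1, Cxcl and Naip. The longest runs were the 9 Samt1 genes on X and 6 genes on chromosome 5, Afp, Rassf6, Cxcl5, Cxcl3, Cxcl1 and Cxcl2, with 5 genes between them of which 1 passed the filter on low counts. Ddit4l, 1110002E22Rik, Mttp (a lipoprotein assembly protein) and Adh7 made a run of 4 on chromosome 3, and Lcn2, Fam102a and Ak1 (adenylate kinase) a run of 3 on chromosome 2. Pairs were Nefl with Nefm, Naip5 with Naip6, Fam83h with Eppk1, and Lipm with Acta2. In the chromosome 5 run the log2 ratios without cytokine were 2.71 (Afp), 1.91 (Rassf6), 1.99 (Cxcl5), 1.35 (Cxcl3), 1.92 (Cxcl1) and 2.92 (Cxcl2). In the chromosome 3 run they were 1.11, 1.82, 1.33 and 1.19, and 1110002E22Rik and Mttp rose with TNF + IFN (1.76 ± 0.18, SE, edgeR adjusted p = 1.56e-09 for Mttp) while Ddit4l fell (−1.57 ± 0.29, SE, edgeR adjusted p = 3.08e-05). Adh7 was at −0.70 ± 0.69 (SE, edgeR adjusted p = 0.4) without the replicate number as a term and fell with it (−0.83 ± 0.14, SE, edgeR adjusted p = 5.84e-06). X held 11 of 107 members (10.3%) and 3.54% of the 14278 tested genes with an entry. Outside the Samt1 family there were 2, Tlr7 and Nyx.

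Promoter sequence was not used by the rule. RefSeq promoters from 250 bases before the start to 50 after were matched for 81 members and 10700 of the 15250 genes tested, taking the first listed start of a gene. CpG content was measured as observed over expected CpG (CpG count times length over the product of the C and G counts). The members' median was 0.40 with quartiles of 0.24 and 0.71, against 0.76 (0.54 and 0.91) for all genes tested. It was under 0.6 for 52 of 81 members (64.2%) and for 29.6% of all genes. Without the Samt1 family it was under 0.6 for 48 of 77 (62.3%). Read the other way, members were 1.64% of the 3165 tested genes with a CpG-poor promoter and 0.385% of the 7535 at or over 0.6. The median GC share was 55.7% for members and 60.7% for all genes. For comparison, 40 genes met the mirrored rule, lower with si-dnmt in every state, and the 30 of them with a promoter had a median of 0.83, with 5 under 0.6 (16.7%).

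Genes with low counts also tend to have CpG-poor promoters, so the shares were set out by level. Among genes averaging 1 to 10 CPM over all libraries, 28 of 42 members (66.7%) and 39.0% of 2232 other genes were under 0.6. From 10 to 100 CPM the figures were 17 of 28 (60.7%) and 20.4% of 5357. From 100 CPM they were 3 of 6 (50%) and 22.4% of 1756, and under 1 CPM 4 of 5 (80%) and 59.3% of 1274. The members' share was higher at each level. By role, the median was 0.190 for innate sensing and interferon-type genes (7 of 9 under 0.6), 0.38 for chemokines, cytokines and growth factors (6 of 8), 0.39 for metabolic and redox enzymes (12 of 16) and 0 for the 4 Samt1 family promoters, which held no CpG. It was 0.72 for the neuronal group (2 of 7 under 0.6), 0.72 for receptors and channels (3 of 7) and 0.81 for transcription, RNA and imprinted genes (1 of 6). Reln (1.01), Nacc2 (1.05) and Fam102a (1.10) had CpG-rich promoters, and Phf11a (0), Il1f9 (0.0541), Naip5 (0.0580) and Glyat (0.0761) nearly CpG-free ones. These 7 were picked after their values were seen.

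**Figure D5:**
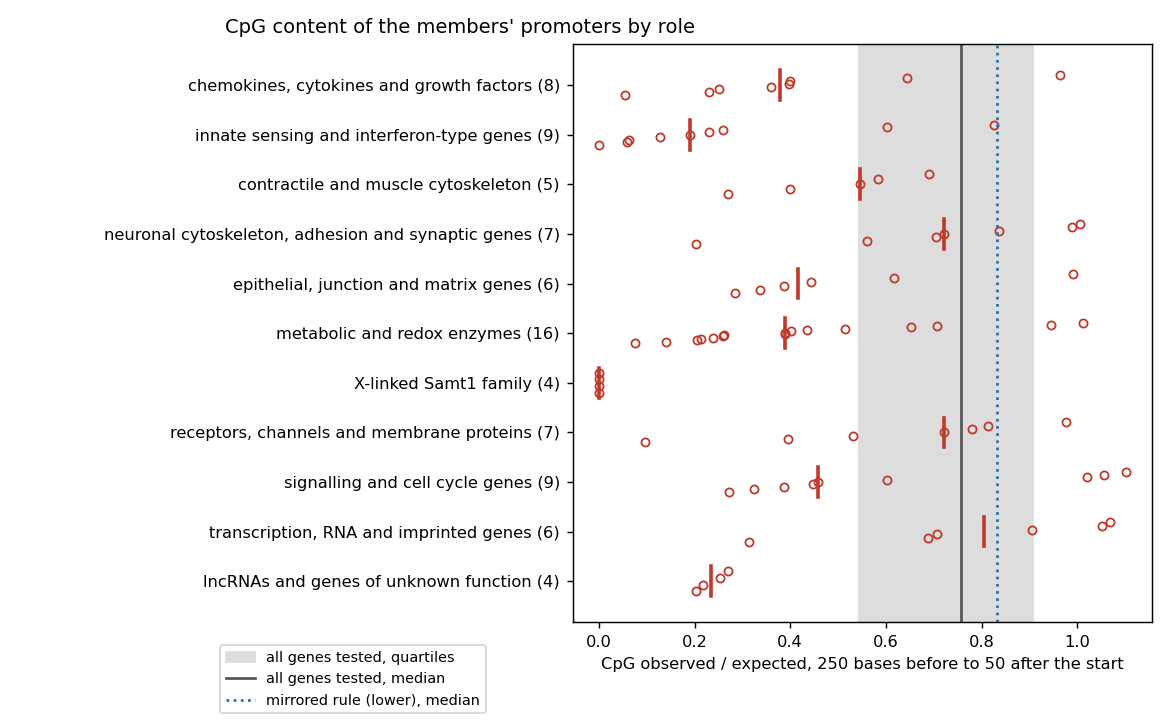
CpG observed over expected (x axis) in the promoters of the 81 members with a RefSeq promoter, by role (rows, number with a promoter in parentheses; bars, medians). The grey band and line give the quartiles and median of all genes tested (0.54, 0.91 and 0.76) and the dotted line the median of genes lower with si-dnmt in every state (0.83); most members lie left of the line.

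Motif letters were searched on both strands of the same windows. TGANTCA, the AP-1-type element, was held by 12 of 81 members (14.8%) and 5.34% of all genes tested, and by 8 of 77 (10.4%) without the Samt1 family, whose 4 promoters all held it. An NRF1-type element (GCGC, any 2 bases, GCGC) was held by 3 members (3.70%) and 13.3% of all genes, and CACGTG, the E-box, by 5 (6.17%) and 10.2%. TTCNNNGAA, the STAT-type element, was held by 5 (6.17%) and 7.01%, GGAAGT, the ETS-type element, by 23 (28.4%) and 28.5%, GATAAG, the GATA-type element, by 3 (3.70%) and 4.77%, and TGACGTCA, the CRE, by 2 (2.47%) and 3.18%. These are matches of letters, not of bound factors.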

How the data were processed

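Bulk RNA-seq of 32 libraries was analysed, in 8 groups of 4. The authors deposited raw counts per gene, made with featureCounts from reads trimmed with cutadapt 4.9 and checked with FastQC 0.12.1 and MultiQC 1.27.1, per the submitters' processing notes. No source used here gives the aligner, the genome build or the strand setting, so gene coordinates of the files are not printed, and reads from overlapping or near-identical genes may be split or shared. The deposited merged matrix equals the library tables summed by symbol (0 cells differed). Total counts were 17362546 to 33500030 per library, and counting intervals cover counting error only.

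CPM was the count scaled by the column total, and members were chosen by the ratio rule given in the text. The members and the gene lists were chosen with earlier results of these data known. Cytokine contrasts averaged over both siRNAs were tested with edgeR 4.0.16 in R 4.3.3 (TMM, filterByExpr with a minimum count of 10, quasi-likelihood test, 8 group means, 15250 genes, Benjamini-Hochberg adjustment, adjusted p under 0.05). The procedure was tested on simulated data. Alternatives were DESeq2 1.42.0, other normalisation and filters, each library left out, replicate sets, each siRNA alone, a replicate block, and other limits of the rule. The labels number replicates 1 to 4 in every group without naming a day or batch. Same-numbered libraries deviated together from their group means (112 pairs, r of 0.30 to 0.62, median 0.42). Libraries with the other number of the same set of 2 did so about as much (median 0.41). The main model had no term for the replicate number, so its calls do not use this pairing. The replicate block was run as an alternative and called more members, as given where it changes a result. The labels call replicates biological but do not name separate cultures, so p-values measure the spread between these libraries, which may be technical.

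The members were named, with values for the 12 largest smallest ratios, those nearest the limit, the 3 largest rises and falls in each contrast, members of the fixed lists, the 5 most read, those that varied most and least over states, and up to 5 per role. Roles were assigned after the members were known. Promoters, gene order and names are RefSeq (GRCm38.p6). A few genes that these rules name are counted in the totals but not reported here.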

Additional observations from a re-analysis of the deposited data

Results flagged for a closer look

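In si-control without cytokine, Cxcl3 measured 4.20 CPM in replicate 2, apart from the other 3 libraries of the group at 2.26 to 2.40 CPM. This was the only outlying library among 80 groups of 4 examined for the genes whose libraries are printed, where chance alone would set apart about 1 group in 20. The Cxcl3 arms without cytokine did not overlap with that library included.

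For Gk5 and Ikbke the TNF effect differed between cells with and without IFN, by the interaction term averaged over both siRNAs in edgeR. The differences were 0.88 on the log2 scale for Gk5 and 0.29 for Ikbke, both positive, so that the TNF effect on the log2 scale was higher with IFN than without. Against no cytokine the log2 fold changes of Gk5 were −0.38 with TNF, −0.41 with IFN and 0.093 with both, and those of Ikbke were 1.35, 0.17 and 1.81. The Ikbke call was lost when some single libraries were left out.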

How the results depend on the processing

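Members called in either direction numbered 40 with TNF, 31 with IFN, 64 with TNF + IFN and 3 for the interaction. Leaving out 1 library at a time gave 37 to 43, 26 to 32, 56 to 66 and 2 to 4, and 94 to 119 members by the rule. The replicate block gave 63 with TNF, 58 with IFN, 79 with TNF + IFN and 16 interactions, kept all 138 calls of the model without it and added 23, 27, 15 and 13. Replicates 1 and 2 alone gave 53 with IFN and 23 interactions, and replicates 3 and 4 alone gave 67 with TNF, 62 with IFN and 17 interactions. The calls over all genes moved as well. With IFN they were 1958 higher and 1550 lower of 15250 with all libraries. They were 2879 and 2424 of 15361 in replicates 1 and 2, and 2299 and 2096 of 15179 in replicates 3 and 4. For the interaction, 197 positive and 241 negative became 1131 and 1473, and 419 and 565, in these sets. With TNF, 3246 higher and 2962 lower became 3644 and 3575 in replicates 3 and 4. The si-control libraries alone gave 13 with IFN and 0 interactions, and the si-dnmt libraries alone 15 and 0. Over all genes with IFN, 1055 were higher and 640 lower of 14404 in si-control alone, and 1186 and 484 of 14654 in si-dnmt alone. Each of these subsets uses fewer samples. DESeq2 gave 42, 37, 63 and 4. The rule itself gave 64 members with 1 CPM added in place of 0.25, 402 at a 1.5-fold limit, 16 at 3-fold and 50 where the si-dnmt mean had to reach 5 CPM. Among the 138 calls, Tlr7 with TNF + IFN was the only value to reverse, at −0.027 on the log2 scale in replicates 3 and 4 alone. The cause was not tested. Named values that were not called were not checked for a reversal. Of 5515 values of these 138 calls under alternatives, 5118 kept their direction and call and 396 kept the direction without the call. Genes at a few counts in si-control have wide intervals, so the size of their ratio is limited by depth.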
